A study of Mus musculus with 20 samples.

Results

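The 10 normal kidneys of this mouse model of clear cell renal cell carcinoma were split by the transcript level of Lcn2, which encodes lipocalin 2 (NGAL), an iron-carrier-binding protein that injured tubule cells make and release into urine. Kidneys 5, 7 and 8 had over 1000 Lcn2 CPM (counts in a library scaled to 1000000, here by its total count) and are called high-Lcn2 kidneys. The other 7 had under 500 CPM and are called low-Lcn2 kidneys, and together they make up 10 of the 20 RNA sequencing libraries of the series, the rest being tumors. No kidney lay between the limits, as the lowest high-Lcn2 kidney held 1861 CPM (kidney 8) and the highest low-Lcn2 kidney 173.5 CPM (kidney 9). Both groups were thus chosen by the measured Lcn2 level and not named by the study, so every difference between the 3 and the 7 kidneys is a description without a p-value, and Lcn2 itself supports nothing that follows.

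All 10 mice were LSL-Cas9/+; Pax8 Cre/+ animals on a C57BL/6 background, in which Cre under the control of the renal lineage gene Pax8 switches on Cas9 and green fluorescent protein in kidney epithelium. Each had adeno-associated virus carrying guide RNAs for Vhl, Pbrm1, Keap1 and Tsc1 injected directly into the kidney, and each also bore a sequenced tumor, so that high-Lcn2 and low-Lcn2 kidneys share the genotype, the virus and the presence of a tumor. There was no kidney from an animal without virus or without a tumor. Whether a piece came from the injected kidney, how near it lay to a tumor, and the age of each mouse at collection were not given in the sources used here.

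When a tubule is injured, by lost blood flow, toxins or obstruction, its surviving epithelial cells lose transporters and brush border, switch on a repair program that includes Havcr1 (KIM-1, a receptor for dying cells), Krt20 (an intermediate filament keratin) and the progenitor factor Sox9, and release cytokines and matrix. The proximal tubule, which reabsorbs most of the filtered solute and burns fatty acids to do so, is the segment best known for this response. Transcripts of liver-type acute phase proteins can rise in the same epithelium.

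The kidney libraries held 14737516 to 26679704 counts, and 14611 genes had a mean of at least 1 CPM over the 10 kidneys. Kidney 9, a low-Lcn2 kidney, stood apart: counts were detected for 19996 genes against 22021 to 22916 in the other low-Lcn2 kidneys, its scaling factor was 0.719 against 1.01 to 1.1, mitochondrial transcripts took 12.2% of its counts, and its deviations from the other kidneys ran against gene length (r across genes -0.552). Its log2 levels correlated with the other low-Lcn2 kidneys at r = 0.863 to 0.889, while those 6 correlated with each other at 0.971 to 0.985. Counts of called list members that change without kidney 9 are given both ways, and its part in them beyond that was not tested. The high-Lcn2 kidneys correlated with each other at 0.938 to 0.963 and with the low-Lcn2 kidneys other than kidney 9 at 0.866 to 0.939. These correlations are across genes, which are not independent replicates.

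The label of injury was set beside Havcr1 and Krt20, which the split did not use. Both were chosen with earlier results of these data known, so their levels are no independent check of the label. Havcr1 was at 170.7, 1409 and 133.7 CPM in kidneys 5, 7 and 8, and at 3.29 to 37.1 CPM (median 9.86) in the low-Lcn2 kidneys (CPM of the scaled library size here and from this point on). Krt20 was at 246.4, 349.7 and 34 CPM against 0.497 to 4.7 CPM (median 2.52). Neither gene overlapped between the groups, and kidney 7 held the most of each. The kidney label held, with Umod, the abundant urinary protein of the loop of Henle, at 3576 CPM or more in every kidney. Of 8 genes listed as high in the tumors, 5 were under 1 CPM on average over the kidneys, among them Mylk2 (at most 0.358 CPM) and Serpinb9b (at most 0.457 CPM), and the 3 that passed that filter were called in neither direction. Markers of other tissues (8 of 12 passed, among them fat, liver and blood genes) were not called either.

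A gene is called higher when all 3 high-Lcn2 kidneys lay above all 7 low-Lcn2 kidneys and the difference of mean log2 CPM was at least 1, and lower in the mirror case. Of 14611 genes, 597 (4.09%) were higher and 1006 (6.89%) were lower, and the median difference over all genes was 0.01. Without the limit on size, 1703 genes (11.7%) lay higher with no overlap and 1942 (13.3%) lower. Without kidney 9, 754 of 14653 genes (5.15%) were higher and 1206 (8.23%) lower, and without kidney 8 the counts were 944 and 1436. Of the 597 higher genes 524 also had a mean of at least 1 CPM over the low-Lcn2 kidneys alone. Lower genes can likewise pass through the low-Lcn2 kidneys, and the matching count was not made for the 1006. Those named below that averaged under 1 CPM in the high-Lcn2 kidneys include Gm853, Pvalb, Cxcl9, Cd8a, Cd79b, Nkg7 and Aif1. As the tissue is bulk, fewer cells of a type and less RNA per cell cannot be told apart in any of these values. The plot of mean levels shows both arms of the difference reaching from rare transcripts to the most abundant ones.

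**Figure D1:**
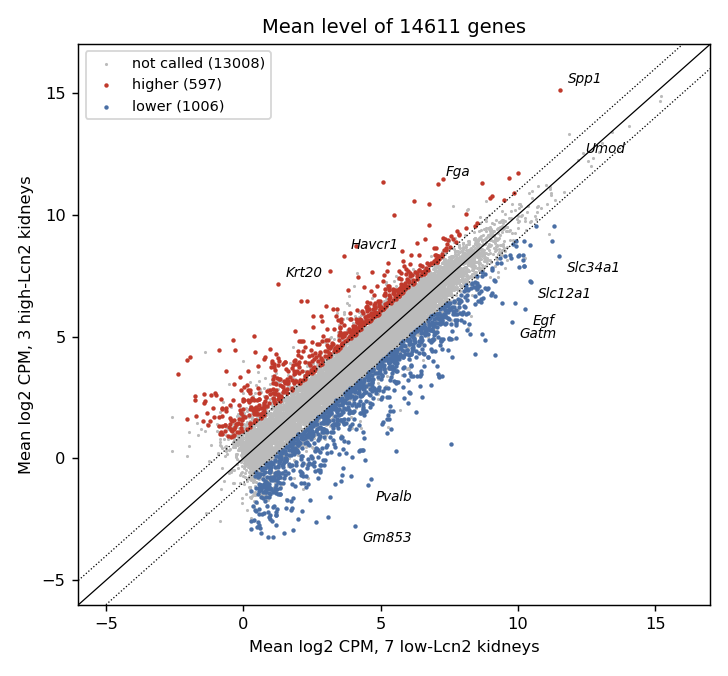
Mean log2 CPM of each of 14611 genes in the 7 low-Lcn2 kidneys (x axis) and the 3 high-Lcn2 kidneys (y axis), with equality as a solid line and a log2 difference of 1 either way as dotted lines. The 597 genes called higher are red and the 1006 called lower are blue, and Umod lies on the line of equality while Slc12a1 and Egf lie far below it.

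The 3 high-Lcn2 kidneys did not contribute equally. Kidney 7 was the highest of them for 305 of the 597 higher genes, kidney 5 for 246 and kidney 8 for 46. Among the 1006 lower genes kidney 7 was the lowest for 496, kidney 5 for 427 and kidney 8 for 83. Kidney 8 was thus the mildest of the 3, with a median absolute deviation from the low-Lcn2 mean of 0.34 on the log2 scale, against 0.505 in kidney 5 and 0.506 in kidney 7.

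The sexes were unequally spread over the groups. Xist, the RNA that silences an X chromosome in females, was above 50 CPM in 5 kidneys, of which 1 was high-Lcn2 (kidney 5) and 4 low-Lcn2. Of 6 genes known to differ between male and female kidneys, Slc7a12 was called. The other 5 kidneys, with Y-linked transcripts, comprised 2 high-Lcn2 and 3 low-Lcn2 kidneys. Within each sex 448 of the 597 higher and 823 of the 1006 lower genes differed by at least 1. The definition of a call fixes their sign within a sex, and the kidneys with Xist include 1 high-Lcn2 kidney, so that these counts carry no replicate error on that side.

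After Lcn2, the 10 protein-coding genes with the largest called rises included Serpina3m (a serine protease inhibitor of an expanded mouse family), Sprr2f (a small proline-rich protein of stressed epithelia), Krt20, Vgf (a neuropeptide precursor), Meltf (melanotransferrin, an iron-binding surface protein), Gm3776, Havcr1, Lrg1 and Serpina3n. Of these, Serpina3m, Sprr2f, Vgf, Meltf and Gm3776 averaged under 1 CPM in the low-Lcn2 kidneys and passed the filter only through the high-Lcn2 kidneys. Sprr2f was at 16, 31.6 and 8.28 CPM in kidneys 5, 7 and 8 and at no more than 0.298 CPM in any low-Lcn2 kidney. Vgf was uneven, at 92.9 CPM in kidney 7 but 5.64 and 2.34 CPM in kidneys 5 and 8, against at most 0.46 CPM. Meltf was at 16.3, 34.9 and 40.8 CPM against 0.124 to 1.48 CPM. Gm3776 and its neighbour in sequence Gsta1 (an alpha-class glutathione transferase) are near-identical copies, as are Serpina3 family members, so reads may have been split among them and their single values are uncertain.

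Among the 10 protein-coding genes with the largest called falls, Slc7a12, an amino acid transporter with sex-biased expression in mouse kidney, was at 10.1, 0 and 3 CPM in kidneys 5, 7 and 8 and at 127.3 to 287.0 CPM in the low-Lcn2 kidneys. Hao2, a peroxisomal hydroxyacid oxidase, was at 27.4, 10.6 and 22.8 CPM against 355.8 to 1017 CPM, a log2 difference of -4.92 ± 0.46 (SE, n = 3 and 7). Mep1b, the beta subunit of the brush border protease meprin, was at 2.54, 0.229 and 2.03 CPM against 21.7 to 152.3 CPM. The remainder of the 10 were Gm853, Pvalb, Gm4450, Akr1c20 (an aldo-keto reductase), Car5a (a mitochondrial carbonic anhydrase), Slitrk6 and Slc22a22 (a transporter of the organic ion family). Gm853 fell from 10.9 to 25 CPM to at most 0.104 CPM, and with so few counts in the high-Lcn2 kidneys no fold is given for it.

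Among 30 tubule injury genes, 29 passed the filter, 11 were higher and none lower, beside 4.09% higher over all genes, with a median difference of 1.33. The 11 were Havcr1, Krt20, Spp1, Clu, Sox9, the keratins Krt18 and Krt19, Anxa3, the matrix protease Mmp7, Tnfrsf12a (the receptor for the cytokine TWEAK) and Hbegf (an epidermal growth factor receptor ligand). Without kidney 9, 17 were higher and the median was 1.46, and without kidney 7 the median was 0.83. The plot of injury and acute phase genes shows the gap between the groups for single kidneys.

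**Figure D2:**
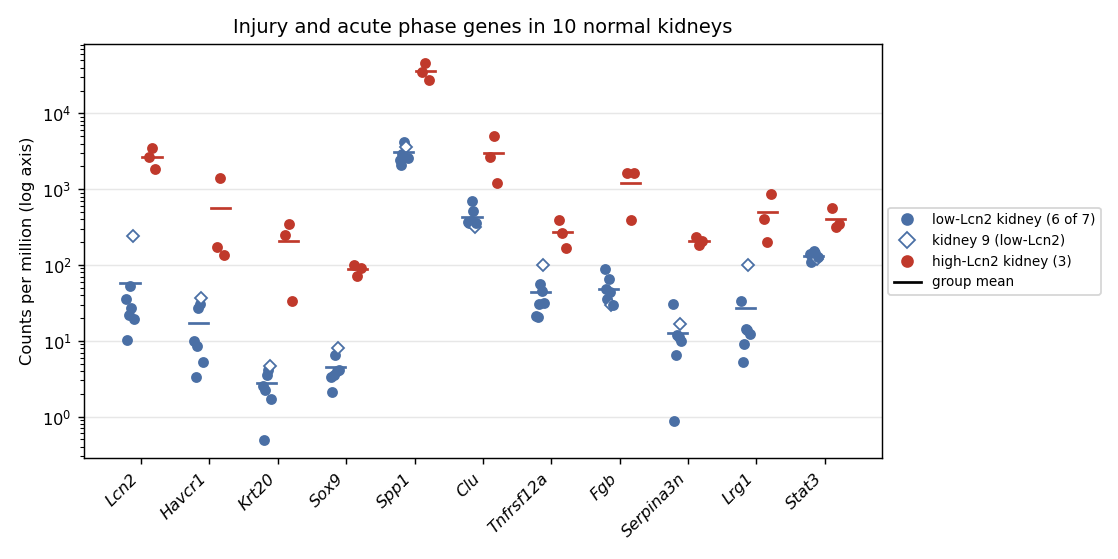
CPM on a log axis of 11 injury and acute phase genes, including Lcn2, in each of the 10 normal kidneys, with 3 high-Lcn2 kidneys in red, 7 low-Lcn2 kidneys in blue (kidney 9 as an open diamond) and bars for group means. Every red point lies above every blue point for all genes shown, which were drawn from those called higher.

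Sox9, a transcription factor of repairing tubule cells, varied least for its level among the high-Lcn2 kidneys of the 11 genes. It was at 100.7, 71.7 and 91.8 CPM in kidneys 5, 7 and 8 and at 2.11 to 7.96 CPM (median 4) in the low-Lcn2 kidneys, a log2 difference of 4.35 ± 0.27. Spp1, which encodes the secreted phosphoprotein osteopontin, was at 35364, 46374 and 27296 CPM against 2099 to 4205 CPM, which made it the most abundant of the genes that rose. Clu (the chaperone clusterin) was at 2689, 5056 and 1204 CPM against 317.4 to 695.6 CPM. Tnfrsf12a was at 389.7, 262.4 and 167.6 CPM against 20.8 to 101.4 CPM, and its highest low-Lcn2 value was again that of kidney 9.

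Other members of the same list did not separate the groups. Vcam1, an adhesion molecule that marks tubule cells failing to repair, was at 22.4, 36.1 and 27.3 CPM against 13.2 to 36.7 CPM, a difference of 0.15 ± 0.27. Cdh6, a cadherin of the developing proximal tubule, differed by -0.09 ± 0.89. Vim (vimentin) and Cd44 were highest in kidney 7, at 387.1 CPM against at most 104.7 CPM, and at 32.5 CPM against at most 8.7 CPM, in the 9 other kidneys. Igfbp7 lay below every low-Lcn2 kidney but by under 1 on the log2 scale (-0.59 ± 0.28).

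The fibrinogen genes were higher as a block within the acute phase list. Fga, Fgb and Fgg encode the alpha, beta and gamma chains of fibrinogen, the clotting protein made mainly by liver. In mm10 coordinates they lie side by side on chromosome 3, Fgg at chr3:83007724-83015049 and Fga at chr3:83026076-83033627 on the plus strand and Fgb at chr3:83040141-83049863 on the minus strand. Because the 3 genes moved together, the bases before each start are shown here, from RefSeq on GRCm38.p6, read 5′ to 3′ on the strand of the gene. The windows are chr3:83049864-83050113 for Fgb, chr3:83025903-83026075 for Fga and chr3:83007474-83007723 for Fgg. For Fga the 77 bases nearest the RefSeq start were left off, as they lie within the gene in the GENCODE annotation. Capitals mark matches, on either strand, to the letters TTCNNNGAA (bound by STAT factors), TTGCNNAA (C/EBP factors) or TGANTCA (AP-1).

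Fgb: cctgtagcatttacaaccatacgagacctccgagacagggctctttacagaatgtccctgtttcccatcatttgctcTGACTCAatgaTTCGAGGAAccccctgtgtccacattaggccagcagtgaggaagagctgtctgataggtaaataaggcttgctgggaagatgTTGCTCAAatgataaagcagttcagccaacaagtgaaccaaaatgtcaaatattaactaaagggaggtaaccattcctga

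Fga: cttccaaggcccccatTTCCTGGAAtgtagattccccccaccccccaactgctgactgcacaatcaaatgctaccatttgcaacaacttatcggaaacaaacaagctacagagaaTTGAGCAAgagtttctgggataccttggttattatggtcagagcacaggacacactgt

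Fgg: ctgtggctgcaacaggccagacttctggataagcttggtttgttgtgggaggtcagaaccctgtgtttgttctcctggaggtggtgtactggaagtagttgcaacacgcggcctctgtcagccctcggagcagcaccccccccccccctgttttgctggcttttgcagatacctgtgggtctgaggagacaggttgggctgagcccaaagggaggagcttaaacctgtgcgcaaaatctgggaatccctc

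The 3 starts differed in these letters. Fgb held an AP-1, a STAT and a C/EBP match that begin 173, 162 and 80 bases before the start, Fga a STAT and a C/EBP match at 234 and 135 bases, and Fgg none of the 3. In the 250 bases before the start of 10845 genes that passed the filter and have a window, STAT letters occurred in 6.07%, C/EBP letters in 7.48% and AP-1 letters in 4.44%. For the 435 higher genes with a window the shares were 7.59%, 10.3% and 7.82%, and for the 732 lower genes 5.6%, 7.79% and 5.05%. The core letters TAATNATTA of HNF1, a factor of kidney and liver epithelium, occurred before 39 genes that passed the filter (0.36%). Of these 11 were lower (1.5% of the lower genes) and 0 higher. Those of HNF4 (CAAAGTCCA) also occurred before 39 genes, 7 of them lower (0.956% of the lower genes) and 1 higher (0.23% of the higher genes). Those of NF-kB (GGGACTTTC) occurred before 39 genes as well, 4 of them lower (0.546%) and 1 higher (0.23%). A match is a description of the letters and not of binding.

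Fgb was at 1651, 387.8 and 1611 CPM in kidneys 5, 7 and 8 and at 29.7 to 89 CPM (median 44.4) in the low-Lcn2 kidneys, a log2 difference of 4.48 ± 0.73. Fga was at 3425, 1156 and 3771 CPM against 90.4 to 228.7 CPM, and Fgg at 2027, 744.6 and 2194 CPM against 51 to 159.5 CPM. All chains were lowest in kidney 7 among the high-Lcn2 kidneys, the reverse of Havcr1. Alb, the most abundant liver transcript, was at 1.81, 6.15 and 4.42 CPM in those kidneys and at 3.35 to 60.9 CPM in the low-Lcn2 kidneys, and was thus not among the transcripts that rose.

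Of 21 acute phase genes 19 passed the filter (16 on the low-Lcn2 kidneys alone), 7 were higher and 1 lower, beside 4.09% and 6.89% over all genes, with a median difference of 2.37. Lrg1, a secreted leucine-rich glycoprotein, was at 405.1, 203.0 and 873.0 CPM against 5.28 to 101.4 CPM. Serpina3n was at 232.7, 181.4 and 209.5 CPM against 0.869 to 30.8 CPM. Stat3, the transcription factor through which interleukin 6 family cytokines act, was at 556.1, 320.9 and 352.3 CPM against 107.9 to 151.4 CPM, and Osmr, the receptor subunit for oncostatin M, rose by 1.52 ± 0.25. Il6 itself stayed under the filter, with at most 5.12 CPM (kidney 5).

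The serum amyloid and complement members were less uniform. Saa1 was at 34.4, 2.87 and 87 CPM against 0 to 5.42 CPM, and it overlapped only through kidney 9, whose 5.42 CPM exceeded kidney 7. C3, the central complement protein, was at 1486, 574.1 and 1935 CPM against 107.9 to 576.9 CPM and missed the call by the narrow overlap of kidney 7 with kidney 3. Cfb, complement factor B, was the member that fell, to 4.87, 5.2 and 8.63 CPM from 13.4 to 28.7 CPM, a difference of -1.71 ± 0.30. Without kidney 9, 14 members were higher and 1 lower, with a median of 2.38.

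Stress and growth-response transcription factors were raised most in kidney 5. Of 15 immediate early genes 6 were higher (Fosl1, Fosl2, Jun, Atf3, Myc and Klf6) and none lower, beside 4.09% higher over all genes. All 15 differences were above 0, and the median was 1.86. Fosl1, an AP-1 subunit, was at 54, 20.2 and 7.57 CPM in kidneys 5, 7 and 8 against 0.955 to 1.72 CPM. Klf6 was at 525.3, 262.2 and 143.5 CPM against 48.5 to 76.6 CPM. Over the list the median deviation from the low-Lcn2 mean was 3.03 in kidney 5, 1.33 in kidney 7, 1.41 in kidney 8 and 1.15 in kidney 9, while the 6 other kidneys lay between -0.41 and 0.12. Without kidney 9, 10 members were higher.

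Of 12 p53 and stress genes, Cdkn1a (the cell cycle inhibitor p21) and the kinase-like Trib3 were higher and none lower, with a median of 0.94. Over all genes 4.09% were higher. Cdkn1a was at 266.8, 297.0 and 105.2 CPM against 13.7 to 93 CPM. Gdf15, a stress cytokine, was at 247.2, 176.0 and 166.9 CPM, while kidney 9 held 174.4 CPM and the other low-Lcn2 kidneys 7.52 to 17 CPM, so it was called only without kidney 9. Of 12 targets and feedback regulators of the inflammatory factor NF-kB, Nfkbiz was the only one called (1.99 ± 0.30), and the list median was 0.43 (0.16 without kidney 5). Without kidney 9, 5 of the stress genes and 3 of the NF-kB genes were higher, beside 5.15% of all genes.

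Genes of the cell cycle were high in kidney 7 and not in kidneys 5 and 8. Mki67, the proliferation antigen, was at 53.7 CPM in kidney 7 but 3.42 and 2.13 CPM in kidneys 5 and 8, against 4.11 to 14.9 CPM in the low-Lcn2 kidneys. Top2a, the DNA topoisomerase of dividing cells, was at 40.9, 1.92 and 1.52 CPM in kidneys 7, 5 and 8 against 2.36 to 9.43 CPM. The median deviation of the 21 members from the low-Lcn2 mean was 2.83 in kidney 7, -0.21 in kidney 5 and -0.53 in kidney 8. Over the groups 1 of the 21 members was higher, the helicase subunit Mcm4, near the share of 4.09% over all genes. The median difference of 0.53 became -0.58 without kidney 7, 0.85 without kidney 5 and 1.05 without kidney 8.

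Of 26 matrix and myofibroblast genes 5 were higher and none lower, beside 4.09% higher over all genes, with a median of 0.83 (0.54 without kidney 7). Without kidney 9, 7 were higher. The higher genes included the basement membrane collagens Col4a1 and Col4a2, Ctgf (connective tissue growth factor) and Mmp14 (a membrane-bound matrix protease). Col4a1 was at 664.4, 1003 and 534.2 CPM against 118.8 to 401.1 CPM. The fibrillar collagen Col1a1 was raised in kidney 7 only, at 298.4 CPM against 34.6 and 48.4 CPM in kidneys 5 and 8 and 7.31 to 64.8 CPM in the low-Lcn2 kidneys. Timp1, an inhibitor of matrix proteases, was at 15.2, 70.8 and 11.9 CPM, and kidney 9 at 14.4 CPM was the sole low-Lcn2 kidney above 4.93 CPM.

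Many transporters and enzymes of the proximal tubule were lower in the high-Lcn2 kidneys. Of 30 proximal tubule genes all passed the filter, 11 were lower and none higher, beside 6.89% lower over all genes, and the median difference was -1.63. The phosphate carrier Slc34a1 was at 661.0, 146.0 and 322.1 CPM in kidneys 5, 7 and 8 and at 1958 to 3715 CPM (median 3119) in the low-Lcn2 kidneys, a difference of -3.20 ± 0.64. Gatm, which makes the creatine precursor guanidinoacetate, was at 31.6, 35.3 and 99.8 CPM against 386.8 to 1262 CPM. Miox, which breaks down myo-inositol, was at 358.2, 49.8 and 194.0 CPM against 1085 to 1935 CPM. No high-Lcn2 kidney reached the lowest low-Lcn2 value of any of these genes, and kidney 7 was the lowest for Slc34a1 and Miox.

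The water channel Aqp1 fell by 2.29 ± 0.58 and the fatty acid transporter Slc27a2 by 1.75 ± 0.21 on the log2 scale, and Slc34a3, Slc17a3, Slc7a7, Ggt1, Dpep1 and Acsm2 were also lower. Lrp2 (megalin, the receptor that takes up filtered protein) was at 696.6, 412.4 and 738.9 CPM, below every low-Lcn2 kidney but kidney 9, which held 539.5 CPM against 2440 to 3567 CPM in the others. The lineage factor Hnf4a was below all low-Lcn2 kidneys, but by less than the limit (-0.93 ± 0.20). Pck1, an enzyme of glucose synthesis, was at 407.1, 1974 and 2750 CPM against 498.5 to 2788 CPM and did not separate. Without kidney 9, 15 members were lower and the median was -1.59.

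Of 16 genes of fatty acid oxidation 2 were higher and none lower, beside 4.09% higher over all genes, with a median of 0.44 (0.27 without kidney 8). Ehhadh, an enzyme of peroxisomal oxidation, was at 2826, 2710 and 3142 CPM against 427.8 to 1252 CPM. The mitochondrial dehydrogenase Acadm differed the other way by -0.94 ± 0.33 and the coactivator Ppargc1a by -0.98 ± 0.44, neither of them called, although Ppargc1a was called lower without kidney 9, where 3 members were higher and 1 lower.

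Of 8 loop of Henle genes 6 were lower, with and without kidney 9, beside 6.89% and 8.23% of all genes. The list median was -1.79. Slc12a1, the sodium-potassium-chloride carrier blocked by loop diuretics, was at 110.5, 165.4 and 198.0 CPM in kidneys 5, 7 and 8 and at 836.2 to 1766 CPM in the low-Lcn2 kidneys, a difference of -3.19 ± 0.28. Egf, the growth factor that this segment releases into urine, was at 141.8, 23.3 and 103.4 CPM against 495.4 to 1658 CPM. Umod, transcribed in the same cells, was at 4473, 3576 and 7206 CPM against 3576 to 8215 CPM and differed by 0.05 ± 0.33, while both other genes fell. The potassium channel Kcnj1, the claudins Cldn10 and Cldn16 and the prostaglandin receptor Ptger3 were lower as well.

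The distal segments followed, with fewer members called, beside 6.89% lower over all genes. Of 8 distal convoluted and connecting tubule genes 3 were lower (median -1.21), and Pvalb, the calcium-binding protein parvalbumin of the distal convoluted tubule, was at 0.932, 0.0382 and 0.609 CPM against 16.6 to 32.4 CPM. Slc12a3, the thiazide-sensitive carrier of the same segment, was at 1020, 336.6 and 838.8 CPM, below all low-Lcn2 kidneys except kidney 9 (305.2 CPM). Of 7 collecting duct principal cell genes that passed, 3 were lower (median -1.30), including Hsd11b2, which shields the mineralocorticoid receptor from cortisol-like hormones, at 23.3, 27.4 and 34.3 CPM against 112.8 to 187.4 CPM, and the water channel Aqp2, at 185.5, 87.2 and 166.7 CPM against 233.0 to 969.8 CPM. Of 7 intercalated cell genes 2 were lower (median -1.14), the proton pump subunit Atp6v1b1 and the anion exchanger Slc4a1. Without kidney 9, 5, 4 and 3 genes of these lists were lower, beside 8.23% of all genes. The intercalated cell median was then -1.73 (-0.72 without kidney 7).

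Genes of non-tubular compartments were not called. None of 6 podocyte, 8 endothelial or 8 urothelial genes was called, beside 4.09% higher and 6.89% lower over all genes. Their medians were 0.19, 0.15 and -0.14. Krt20 also marks the surface cells of the urothelium, the lining of the urinary tract, whose other genes went in both directions. Among the uroplakins, membrane proteins of that lining, Upk1b was at 7.04, 7.22 and 4.88 CPM against 0.0653 to 6.51 CPM (1.17 ± 0.72), and Upk2 at 1.14, 0.764 and 0.609 CPM against 0.522 to 2.75 CPM. Upk2 was called lower without kidney 9 (-1.25 ± 0.29). The keratins Krt5 and Krt15 were high in kidney 7, the kidney with the most Krt20, at 30.1 and 12.8 CPM against at most 4.64 and 5.23 CPM in the low-Lcn2 kidneys. The part of urothelium in the level of Krt20 was not tested. The summed level of the 8 urothelial genes was 37.6 to 83.9 CPM in the high-Lcn2 kidneys and 38.2 to 58 CPM in the low-Lcn2 kidneys. Kidney 9 was low in podocyte, endothelial and urothelial genes, with list medians of -2.17, -0.92 and -1.83 relative to the low-Lcn2 mean.

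**Figure D3:**
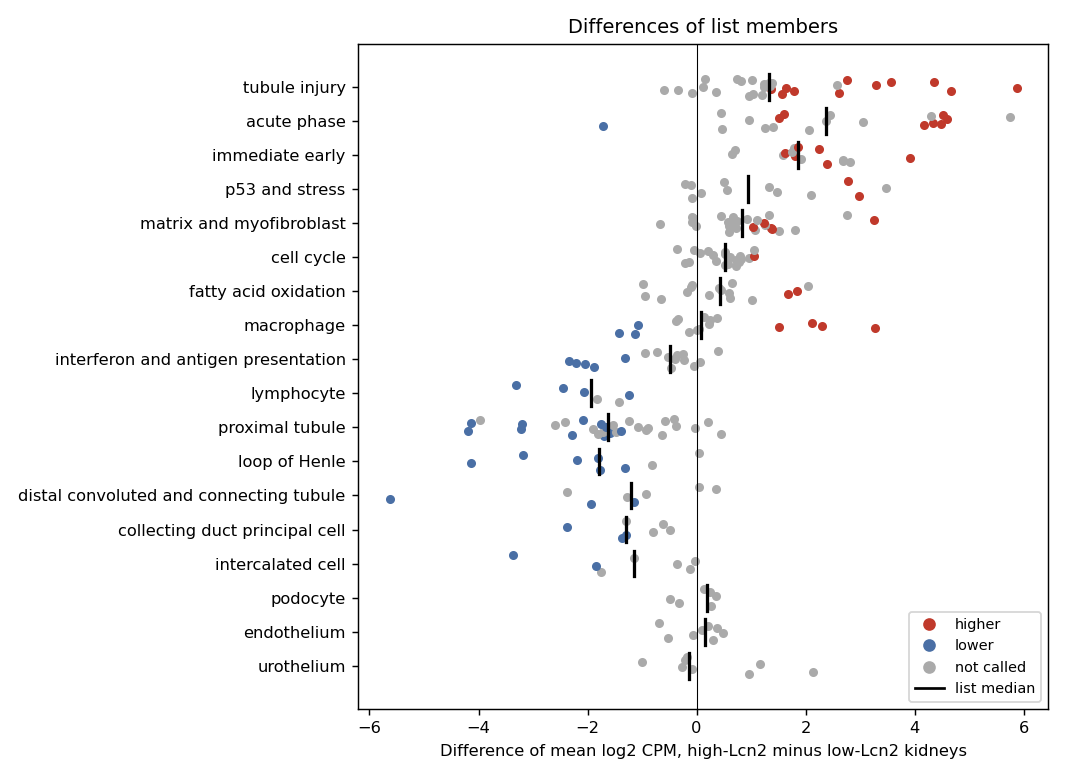
Difference of mean log2 CPM (high-Lcn2 minus low-Lcn2 kidneys, x axis) of each gene that passed the filter in 18 lists, with genes called higher in red, called lower in blue, the others in gray, and the list median as a black bar. The medians of the tubule injury and acute phase lists lie at 1.33 and 2.37, those of the 5 tubule segments between -1.14 and -1.79, and those of podocyte, endothelial and urothelial genes at 0.19, 0.15 and -0.14.

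Immune genes split by kind. Of 16 macrophage genes 4 were higher and 3 lower, beside 4.09% and 6.89% over all genes, with a median of 0.09. The higher ones were Cd14 (a receptor for bacterial lipopolysaccharide), Cd68 (a lysosomal protein), Itgam (the integrin CD11b) and Cd163 (the hemoglobin scavenger receptor). Cd14 was at 401.0, 79.3 and 161.8 CPM in kidneys 5, 7 and 8 against 11.5 to 71.8 CPM, and its highest low-Lcn2 value came from kidney 9, the next being 19.5 CPM. Cd68 was at 14.7, 56.3 and 15.5 CPM against 2.64 to 11.7 CPM.

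The lower macrophage genes were Csf1r (the receptor for macrophage growth factor), Adgre1 (F4/80) and Aif1. Csf1r was at 28.1, 33.2 and 40.3 CPM against 56.1 to 115.1 CPM, and without kidney 9 its difference of -1.08 became -0.95, short of the call. Adgre1 was at 1.81, 4.78 and 7.11 CPM against 7.37 to 10.4 CPM, and its difference of -1.12 was -0.58 without kidney 5. Il34, a ligand of Csf1r made by tubule cells, went the other way, at 100.8, 133.7 and 133.3 CPM against 5.59 to 57.3 CPM. The complement genes C1qa and C1qb, also abundant in macrophages, differed by -0.13 ± 0.47 and 0.00 ± 0.42.

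The plot of immune genes by kidney shows class II antigen presentation genes and some lymphocyte genes below the low-Lcn2 range. Of 16 interferon and antigen presentation genes 5 were lower and none higher, beside 6.89% lower over all genes, with a median of -0.50. The 5 were Ifit3 and the class II genes H2-Aa, H2-Ab1, H2-Eb1 and Cd74. H2-Ab1 was at 21.7, 14.5 and 25.5 CPM against 55.1 to 182.4 CPM, and Cd74, the chain that guides class II molecules, at 75, 36.6 and 78.9 CPM against 129.3 to 390.0 CPM. Genes of class I presentation were not called, with differences of 0.07 ± 0.13 for H2-D1, 0.39 ± 0.40 for Tap1, -0.23 ± 0.13 for H2-K1 and -0.46 ± 0.25 for B2m. Without kidney 9 the count was again 5 lower, and the median was -0.42 (-0.79 without kidney 8).

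**Figure D4:**
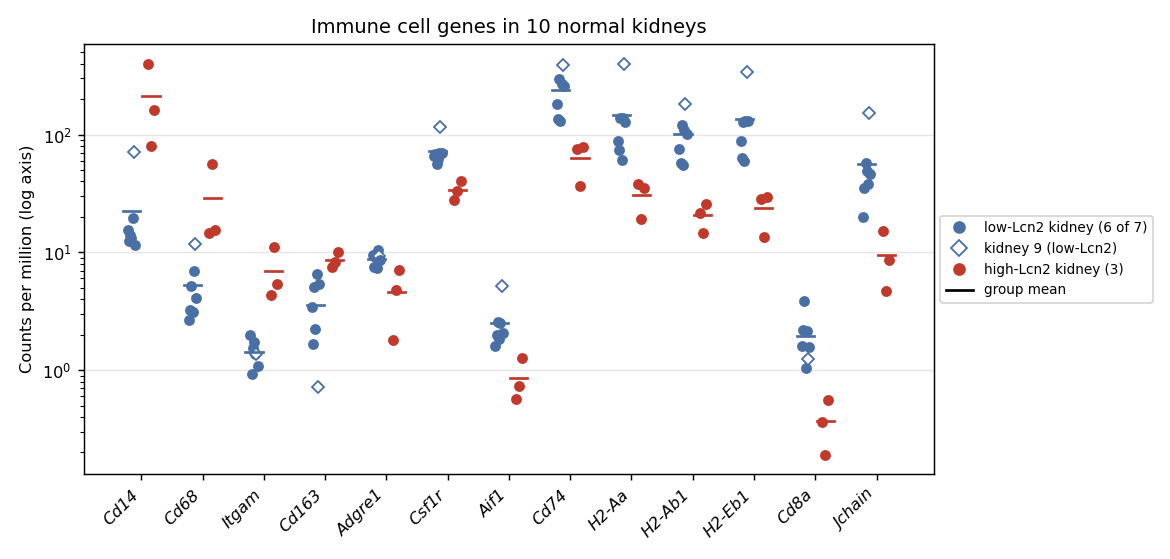
CPM on a log axis of 13 immune cell genes, drawn from those called higher or lower, in each of the 10 normal kidneys, with 3 high-Lcn2 kidneys in red, 7 low-Lcn2 kidneys in blue (kidney 9 as an open diamond) and bars for group means. Cd14, Cd68, Itgam and Cd163 lie higher in the high-Lcn2 kidneys and the other 9 genes lower. Kidney 9 is the highest low-Lcn2 kidney for every gene shown except Itgam, Cd163, Adgre1 and Cd8a.

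Of 14 lymphocyte genes 6 passed the filter, 4 were lower and none higher, beside 6.89% lower over all genes. Among those that passed, Cd4, Cd8a, Cd79a, Cd79b and Nkg7 averaged 0.507, 0.371, 0.443, 0.796 and 0.0508 CPM in the high-Lcn2 kidneys. All but Jchain thus passed only through the low-Lcn2 kidneys, and the count of lower members is in part set by the filter. Cd8a, a subunit of the cytotoxic T cell coreceptor, was at 0.362, 0.191 and 0.559 CPM against 1.05 to 3.83 CPM. Jchain, which joins secreted antibodies, was at 15.2, 4.74 and 8.68 CPM against 20.1 to 151.4 CPM. Nkg7, of cytotoxic granules, was at 0, 0 and 0.152 CPM against 0.718 to 4.18 CPM and was under the filter without kidney 9, where 3 of 5 members were lower. Over the list the summed level was 7.11 to 18.3 CPM in the high-Lcn2 kidneys and 32.6 to 175.0 CPM in the low-Lcn2 kidneys. Jchain alone made up most of these sums, at 4.74 to 15.2 CPM and 20.1 to 151.4 CPM.

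Neutrophil transcripts were scarce in all kidneys. Of 11 genes 5 passed the filter (4 on the low-Lcn2 kidneys alone), and the protease Mmp9 was higher, as was Retnlg, which passed only through the high-Lcn2 kidneys. Over all genes 4.09% were higher. Without kidney 9, 4 members of the list were higher. Retnlg was at 3.52, 11.2 and 5.38 CPM against 0 to 3.2 CPM. The summed level of the list was 29.2 to 52.5 CPM in the high-Lcn2 kidneys and 3.66 to 23.9 CPM in the low-Lcn2 kidneys. The defining gene Ly6g was at 0.0518, 0.0764 and 0 CPM, and at 0 in every low-Lcn2 kidney but kidney 9. Lcn2 is also a granule protein of neutrophils, and the part of these cells in its level was not tested.

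Of 18 chemokine and adhesion genes 14 passed, 3 were higher (Il34, Icam1 and Selp) and 1 was lower, with a median of 0.77. Over all genes 4.09% were higher and 6.89% lower. Icam1 and Selp encode adhesion molecules that leukocytes bind, and they rose by 1.01 ± 0.14 and 2.20 ± 0.59. Cxcl9, an interferon-driven attractant of T cells, was at 0.104, 0.0382 and 0.254 CPM against 0.479 to 4.6 CPM. Cxcl1, an attractant of neutrophils, was at 25.7, 8.33 and 18.8 CPM, while kidney 9 held 22.8 CPM and the other low-Lcn2 kidneys at most 1.01 CPM. Without kidney 9, 6 were higher and 1 lower.

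**Figure D5:**
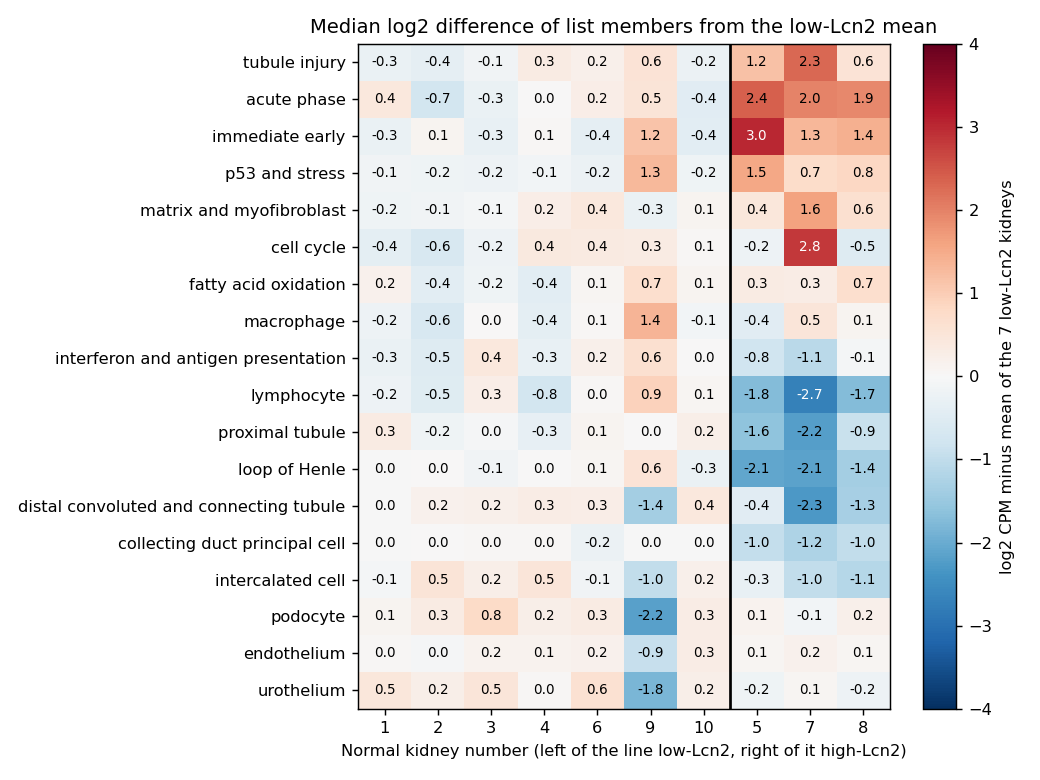
Median over list members of log2 CPM minus the mean of the 7 low-Lcn2 kidneys, for 18 lists (rows) in each normal kidney (columns), with low-Lcn2 kidneys left of the line and high-Lcn2 kidneys right of it, on a color scale from -4 (blue) to 4 (red). The cell cycle list stands at 2.83 in kidney 7 and below 0 in kidneys 5 and 8, immediate early genes peak in kidney 5 at 3.03, and kidney 9 is lowest in the podocyte, endothelial and urothelial lists.

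The tumors, which had no part in the split, offered samples in which to test whether genes vary with Lcn2. Lcn2 ranged from 0.448 to 167.0 CPM over the 10 tumors, the highest being tumor 7, so that none reached the level of the high-Lcn2 kidneys. The lowest values rested on few counts, 11, 17 and 19 in tumors 4, 2 and 10. Across the 10 tumors the log2 levels of 12 genes were correlated with that of Lcn2 by two-sided permutation tests with 100000 resamples, adjusted by the Benjamini-Hochberg method over the 12. By Pearson's r 6 of the 12 had an adjusted p under 0.05, and by Spearman's rho 2 did. The tumors are a different tissue, and each sex had under 6 tumors, too few for correlations within a sex.

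Slc34a1 fell as Lcn2 rose (r = -0.94, permutation p = 1.00e-05, the smallest these resamples give, adjusted p = 0.00012, and rho = -0.92, adjusted permutation p = 0.00564). Without the 2 tumors farthest from the Lcn2 median, tumors 7 and 8, r was -0.86. Sox9 rose with Lcn2 (r = 0.83, adjusted permutation p = 0.0132, and rho = 0.81, adjusted permutation p = 0.042), and r was 0.87 without those tumors. These were the genes called by both measures, and in the kidneys Slc34a1 was lower and Sox9 higher with high Lcn2.

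The other relations rested more on a few tumors. Lrp2 had r = -0.85 (adjusted permutation p = 0.00708), with rho = -0.72 (adjusted permutation p = 0.0716), and r was -0.62 without tumors 7 and 8. Krt20, Clu and Timp1 had r = 0.77, 0.77 and 0.73, each with an adjusted permutation p of 0.0201, and r fell to 0.37, 0.64 and 0.54 without those tumors. Timp1 was at 419.3 CPM in tumor 7 and at most 9.72 CPM in the others. Without these tumors Slc34a1 and Sox9 were the only genes of the 12 with an adjusted permutation p under 0.05 (0.018 and 0.0321).

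For Havcr1, r was 0.22 (adjusted permutation p = 0.65), and for Spp1 -0.02 (adjusted permutation p = 0.95), although both rose in the high-Lcn2 kidneys. Havcr1 was high in every tumor, at 96.8 to 556.2 CPM, compared with 3.29 to 37.1 CPM in the low-Lcn2 kidneys. Cp (ceruloplasmin) had r = 0.62 (adjusted permutation p = 0.0907), Cd44 0.51 (0.186), C3 0.24 (0.65) and Vcam1 0.10 (0.853). The sign of r matched the sign of the difference between kidneys for 11 of the 12 genes, and for Vcam1 and Spp1 one of these values was near 0. The kidney differences of Vcam1 (0.15 ± 0.27) and Cp (0.36 ± 0.73) were smaller than their SE. Without tumors 7 and 8, r changed sign for Havcr1, Vcam1 and Cd44.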

How the data were processed

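RNA from 10 normal kidneys and 10 tumors was extracted with Trizol and made into libraries after poly(A) selection. The authors deposited a table of raw counts per gene for mm10, with no normalization. The aligner, counter and strand setting are not given in the sources used here. All sample columns were mapped by name (0 left unmapped), 54495 of 54532 gene identifiers were found in GENCODE M21, and no pair of libraries agreed within sampling noise.

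Normal kidneys were split by Lcn2 CPM of the column total (above 1000 or below 500). Counts of genes with a mean of at least 1 CPM over the 10 kidneys were scaled with TMM factors (edgeR 4.0.16, R 4.3.3) and expressed as log2 CPM with a prior count of 2. The difference is the mean of 3 high-Lcn2 minus that of 7 low-Lcn2 kidneys, and its standard error comes from both groups' SDs. Because the split uses the same libraries, no gene of this contrast was tested. The steps were tested on simulated counts. Correlations across tumors used 100000 permutations and Benjamini-Hochberg adjustment over 12 genes.

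Members and gene lists were chosen with earlier results of these data known. Named genes are the 3 markers, list members, the 12 tumor genes, and the 10 largest called rises and falls among protein-coding genes. Some list members enter the counts and medians but are not reported here by name. Alternatives were library totals, DESeq2 1.42.0 size factors, other filters and prior counts, fold changes from edgeR and DESeq2, leaving out each kidney and, added after seeing the data, differences within each sex and the tumors without tumor 7. Promoter letters were read from RefSeq windows. CPM values carry counting error besides the spread between kidneys. The labels number the kidneys and the tumors but do not say whether a number marks a mouse.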

Additional observations from a re-analysis of the deposited data

Results flagged for a closer look

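A kidney or tumor is listed here where it lay far from the nearest of the others in its group, by Dixon's criterion at 95%. Of 73 such comparisons 16 passed, and 13 of the 16 were kidney 9. For a single comparison chance passes about 1 in 20. The comparisons share the same kidneys or tumors and include genes picked for large differences, so that rate is no reference for this count. The 3 high-Lcn2 kidneys are too few for the criterion.

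In kidney 9 the scaling factor was 0.719 (1.01 to 1.1 in the 6 other low-Lcn2 kidneys), the number of genes with a count 19996, and the correlation of its deviations with log2 gene length -0.552 (others -0.0274 to 0.102). It was high for Cxcl1 (22.8 CPM, others at most 1.01), Cd14 (71.8 CPM, others at most 19.5), Csf1r (115.1 CPM, others at most 70.4), Aqp2 (969.8 CPM, others at most 391.6) and Car5a (13 CPM, others at most 6.11). It was low for Lrp2 (539.5 CPM, others at least 2440), Gatm (386.8 CPM, others at least 785.4), Egf (495.4 CPM, others at least 1112), Slc12a3 (305.2 CPM, others at least 1212) and Kl (188.6 CPM, others at least 555.0). Kidney 9 thus lay toward the high-Lcn2 kidneys for Cxcl1, Cd14, Lrp2, Gatm, Egf, Slc12a3 and Kl and away from them for Csf1r, Aqp2 and Car5a.

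In tumor 7, the tumor with the most Lcn2, Timp1 was at 419.3 CPM (others at most 9.72), Cd44 at 185.9 CPM (others at most 85) and Lrp2 at 456.3 CPM (others at least 1510).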

How the results depend on the processing

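No paired analysis was possible because the comparison lies within the normal kidneys, where each replicate number occurs once, and the correlations lie within the tumors. The counts of 597 higher and 1006 lower genes became 1703 and 1942 with no limit on the difference, 145 and 331 with a limit of 2, and 958 higher with no filter on low counts. Leaving out each kidney gave 599 to 944 higher and 1028 to 1436 lower. With library totals 668 were higher and 905 lower. The median of the collecting duct principal cell list was -1.03 with no filter and -1.11 within sexes, and that of the cell cycle list 1.31 with edgeR or DESeq2 fold changes. Leaving out each kidney moved the medians of the following lists: tubule injury 0.83 to 1.70, NF-kB feedback 0.16 to 0.54, matrix 0.54 to 1.04, cell cycle -0.58 to 1.05, proximal tubule -1.89 to -1.26, loop of Henle -2.11 to -1.63, principal cell -1.35 to -0.89, intercalated cell -1.73 to -0.72.

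In the tumors, 6 genes with an adjusted permutation p under 0.05 became 2 without the 2 farthest tumors and 3 without tumor 7. Without the 2 farthest, r changed sign for Havcr1 (-0.10), Vcam1 (-0.13) and Cd44 (-0.35), and without tumor 7 for Havcr1 (-0.10), Spp1 (0.06), Vcam1 (-0.11) and Cd44 (-0.35). With library totals r for Spp1 was 0.00. The cause of these shifts was not tested.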

Other observations

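Lists in this part were chosen after their values were seen. Of 12 lipid-storage and fasting genes, many of them targets of the fatty acid receptor PPAR alpha, 3 were higher and none lower, beside 4.09% higher over all genes, with a median difference of 1.33. One of them, Acot5, passed the filter only through the high-Lcn2 kidneys, and without kidney 9, 6 of 11 were higher. Plin2, the coat protein of lipid droplets, was at 3944, 2906 and 1965 CPM in kidneys 5, 7 and 8 and at 98.3 to 443.9 CPM in the low-Lcn2 kidneys. Pdk4, which holds back glucose oxidation, was at 2744, 796.6 and 1244 CPM against 27.3 to 595.5 CPM, with a difference of 5.92 within Xist kidneys and 1.53 within Y kidneys. Of 10 targets of the oxidative stress factor Nrf2, whose inhibitor Keap1 is one of the genes targeted by the guides, 9 passed the filter (8 on the low-Lcn2 kidneys alone) and 5 were higher, 4 of them among the 8, and without kidney 9, 6 were higher. Srxn1, which repairs oxidized peroxiredoxins, was at 599.1, 992.1 and 224.5 CPM against 74.6 to 140.7 CPM. Gclc, which limits glutathione synthesis, was at 1464, 824.2 and 932.2 CPM against 191.5 to 424.0 CPM. The 4 targeted genes, Vhl, Pbrm1, Keap1 and Tsc1, were not called, with differences of 0.03 to 0.49.

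Of 8 ATF4 targets 2 were higher, and 4 were without kidney 9, beside 4.09% and 5.15% of all genes. Psat1, of serine synthesis, was at 313.2, 307.9 and 343.7 CPM against 37.3 to 111.2 CPM. Of 5 glucocorticoid-responsive genes 2 were higher, with Fkbp5 at 265.0, 454.6 and 315.4 CPM against 49.3 to 249.2 CPM. Of 10 kidney hormone and receptor genes 9 passed, and 2 were lower, beside 6.89% of all genes. Kl, the co-receptor Klotho that lets the kidney respond to a bone hormone of phosphate balance, was at 103.3, 81.8 and 155.5 CPM against 188.6 to 722.2 CPM. Ace, the angiotensin-converting enzyme, differed by -1.09 ± 0.31, and was not called without kidney 9. Ren1 (renin) was at 29.2, 79 and 97.2 CPM against 5.85 to 47 CPM and was not called.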
